A study of Mus musculus with 4 samples.

Results

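Ring1B occupancy was examined at the promoters of 10 genes that encode subunits of Ring1B's own complex, Polycomb repressive complex 1 (PRC1). The genes were chosen by name, as the probes that the scanner files assign to Rnf2, Ring1, Bmi1, Pcgf2, Pcgf5, Phc1, Phc3, Scmh1, Scml2 or Rybp. They hold 276 of 474380 probes, and 10 of the 17649 promoters for which a window of neighbouring probes could be formed. The choice used no measured value, although earlier results of these arrays were known when it was made.

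Mouse embryonic fibroblasts of the C57BL/6 strain, derived at embryonic day 12.5 and taken at passage 2, were either homozygous for the Phc2 L307R allele or wild type. Chromatin was precipitated with a Ring1B antibody, and precipitated DNA (Cy5) was hybridised against input DNA (Cy3) on oligonucleotide promoter arrays after T7 RNA polymerase amplification. The study holds 4 arrays in 2 designs, each design hybridised 1 time per genotype, so a promoter was measured once in each genotype. The labels do not say how many embryos or cultures stand behind an array. The comparison asks how Ring1B occupancy differs in cells whose Phc2 carries a changed SAM domain, and Phc2 itself was not analysed here. Each of the 2 scan days held arrays of 1 genotype, so scan day and genotype cannot be told apart.

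PRC1 is built around a catalytic pair, a RING protein (Ring1A, encoded by Ring1, or Ring1B, encoded by Rnf2) and a Pcgf protein, which together attach ubiquitin to histone H2A. Canonical PRC1 contains Bmi1 or its paralogue Mel18 (Pcgf2) together with a Cbx protein and a Polyhomeotic protein (Phc1, Phc2 or Phc3), whose SAM domain polymerises. Variant PRC1 contains Rybp or its paralogue Yaf2 and can be built on other Pcgf proteins such as Pcgf5, while Scmh1 and Scml2 are relatives of the Drosophila protein Sex comb on midleg and carry a SAM domain as well. Polycomb complexes are best known for silencing developmental genes in cells that do not use them, and their binding in mammals lies mostly at promoters rich in CpG dinucleotides.

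The promoters that the results turn on differ widely in CpG content. They are shown as RefSeq gives them for the GRCm38.p6 build, each with 250 bases before and 50 after the annotated start, written 5′ to 3′ on the strand of the gene, with every CpG in capitals. Bmi1 (chr2:18676768-18677067, plus strand) is shown because it held by far the most Ring1B of the 10 genes, and Rnf2 (chr1:151500942-151501241, minus strand) because it encodes Ring1B. Ring1 (chr17:34024631-34024930, minus strand) is rich in CpG and did not reach the cut-off for binding in either genotype with the scanner ratios, although it did so in wild type with another background correction (normexp). Scmh1 (first annotated start, chr4:120405098-120405397, plus strand) has the most CpG of the members, and Scml2 (chrX:161162500-161162799, plus strand) had the largest difference between the genotypes.
Bmi1: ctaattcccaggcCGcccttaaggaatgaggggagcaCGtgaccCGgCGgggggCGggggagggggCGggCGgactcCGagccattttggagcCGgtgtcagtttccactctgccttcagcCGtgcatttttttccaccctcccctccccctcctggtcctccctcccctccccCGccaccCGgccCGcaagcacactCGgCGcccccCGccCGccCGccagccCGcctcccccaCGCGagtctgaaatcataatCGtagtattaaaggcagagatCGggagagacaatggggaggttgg
Rnf2: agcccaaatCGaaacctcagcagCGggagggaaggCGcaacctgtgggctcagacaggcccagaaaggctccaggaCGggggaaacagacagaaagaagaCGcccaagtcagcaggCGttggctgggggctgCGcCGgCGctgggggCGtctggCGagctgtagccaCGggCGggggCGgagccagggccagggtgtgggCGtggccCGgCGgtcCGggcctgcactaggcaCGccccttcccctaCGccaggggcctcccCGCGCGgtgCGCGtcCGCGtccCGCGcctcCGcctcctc
Ring1: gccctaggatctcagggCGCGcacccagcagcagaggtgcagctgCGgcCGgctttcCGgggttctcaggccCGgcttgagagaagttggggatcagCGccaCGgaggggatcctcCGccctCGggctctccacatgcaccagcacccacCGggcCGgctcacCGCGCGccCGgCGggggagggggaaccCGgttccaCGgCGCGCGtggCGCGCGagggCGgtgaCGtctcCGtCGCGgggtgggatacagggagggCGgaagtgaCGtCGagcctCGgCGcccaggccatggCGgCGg
Scmh1: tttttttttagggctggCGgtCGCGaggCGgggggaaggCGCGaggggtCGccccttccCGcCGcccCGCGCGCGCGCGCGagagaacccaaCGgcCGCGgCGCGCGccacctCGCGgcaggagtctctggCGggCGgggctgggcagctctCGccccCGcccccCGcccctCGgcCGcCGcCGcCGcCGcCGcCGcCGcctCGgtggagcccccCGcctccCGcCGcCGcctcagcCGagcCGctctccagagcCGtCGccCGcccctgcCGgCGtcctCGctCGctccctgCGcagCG
Scml2: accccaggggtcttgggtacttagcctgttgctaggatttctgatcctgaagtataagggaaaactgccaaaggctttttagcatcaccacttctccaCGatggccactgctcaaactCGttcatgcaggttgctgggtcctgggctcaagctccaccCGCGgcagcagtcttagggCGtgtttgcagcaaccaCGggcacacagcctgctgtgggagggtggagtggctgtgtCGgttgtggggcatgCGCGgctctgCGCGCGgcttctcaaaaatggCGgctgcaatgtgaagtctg

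The RefSeq table held 12 starts of 9 of the members and none for Rybp. Counted in these windows of 300 bases, Scmh1 had 54 CpG at its first start and 0 at its second. Ring1 had 37, Rnf2 30, Bmi1 23 and Scml2 13, and over all 32851 promoters of the table the quartiles were 3, 7 and 20. The motif GGGCGG, searched on both strands, was present at 8 of the 12 starts (35.7% of all promoters), 6 times at Bmi1, 5 times at Scmh1 and 0 times at Scml2. CACGTG was found at 3 of the 12 starts (Bmi1, Phc3 and Pcgf2), against 7.15% of all promoters. CCAAT, also searched on both strands, was present at 1 start of Pcgf5 (37.4% of all promoters) and TGACGTCA at 0 starts (1.79%). Since no source used here names the genome build of the probes, these sequences cannot be placed within the probe windows below, and probe coordinates are given as the files have them.

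Occupancy is given as the log2 ratio of precipitate over input, centred on each array's median. Each promoter is represented by its 3 neighbouring probes within 2000 bp that had the highest mean over both genotypes. The error beside a window mean is the SD over those 3 probes, which is not an error between cultures, and no p-value can be given with 1 array per genotype. A promoter counted as bound where its window averaged 1 or more, and as lower or higher in Phc2 L307R at a difference of at least 2-fold (1 on the log2 scale) with all 3 probes on the same side. Precipitate signal was well above background at 97.9% to 99.7% of probes on the 4 arrays. Input signal was so at 75% and 76.3% of probes in Phc2 L307R and at 85.7% and 86.7% in wild type.

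Bmi1 was one of the most strongly occupied promoters on the arrays in both genotypes, and the other members lay at moderate or low levels. In Phc2 L307R fibroblasts 6 of the 10 promoters were bound (Bmi1, Phc1, Rnf2, Rybp, Scmh1 and Scml2), where 39.3% of all promoters were. In wild-type fibroblasts 6 were bound as well (Bmi1, Pcgf2, Phc1, Phc3, Rybp and Scmh1), where 45.4% of all promoters were. The same 4 promoters, Bmi1, Phc1, Rybp and Scmh1, were bound in both (33.7% of all promoters), 8 were bound in either (51% of all), and Ring1 and Pcgf5 in neither. With normexp background correction the bound members were Bmi1 and Rybp in Phc2 L307R, and Bmi1, Ring1, Rybp and Scmh1 in wild type. With shares of this size among all promoters, binding at this cut-off does not set the members apart.

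By the 2-fold rule, 0 members were lower and 0 higher in Phc2 L307R, where 3.01% and 1.64% of all promoters bound in either genotype were. The differences over the members spanned -0.49 at Phc3 to 0.74 at Scml2, with a median of 0.11, against -0.05 over all promoters. Of the 10 differences, 7 lay above 0 and 3 below, where 8032 of all 17649 promoters lay above 0 and 9617 below. This split depended on the processing. The same genes lay above 0 with loess. Only Pcgf5, Phc1 and Scml2 did so with the value tables, and only Bmi1 and Pcgf2 with normexp background correction. With the mean over all probes only Bmi1, Pcgf5 and Scml2 did. With the value tables the median over the members was -0.17, against -0.06 over all promoters. All 3 probes of the window were higher at Phc1 and Scml2 and all 3 were lower at Pcgf2, and at the other 7 genes the probes of a window disagreed on the sign. Counted over single probes, 46 of the 275 measured probes lay at or above 1 in each genotype, 12 of them at Bmi1. Over all probes of the 2 array designs, 12.6% and 13% did so in Phc2 L307R and 14.1% and 13.7% in wild type.

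**Figure D1:**
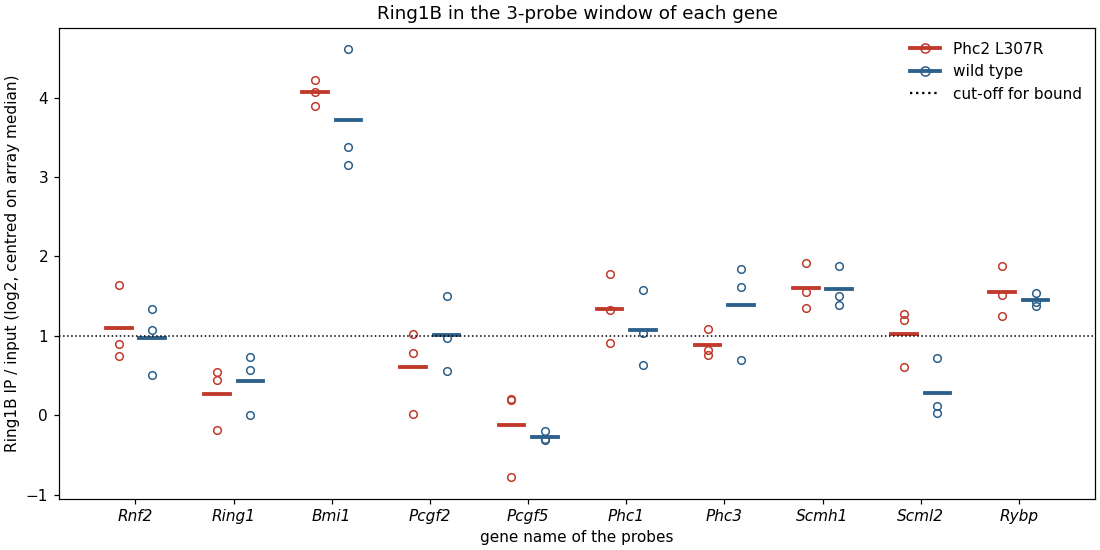
Ring1B precipitate over input (log2, centred on the array median) in the 3-probe window of each of the 10 genes, Phc2 L307R in red on the left and wild type in blue on the right of each pair. Open circles are single probes, bars their mean and the dotted line the cut-off of 1. Bmi1 stands at 4.06 in Phc2 L307R and 3.71 in wild type, and every other mean lies between -0.27 and 1.61.

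**Figure D2:**
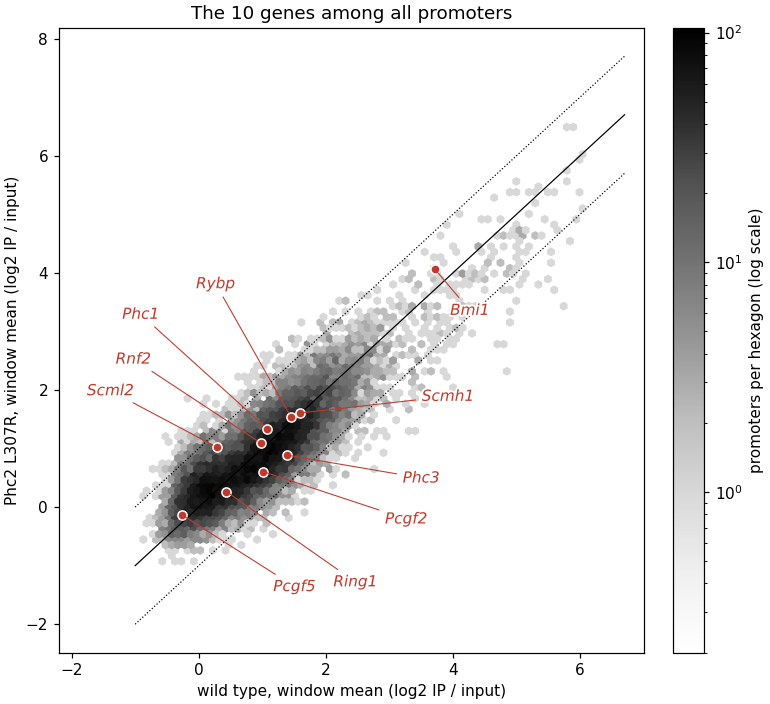
Window mean in Phc2 L307R (vertical) against wild type (horizontal) for 17649 promoters, as hexagons shaded by count on a log scale, with the 10 genes as red points. The solid line marks equal values and the dotted lines a 2-fold difference. All 10 genes lie between the dotted lines, and Bmi1 lies among the few promoters above 3 in both genotypes.

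The plot of window means shows 1 gene far above the rest, and the plot against all promoters places the other 9 in the dense part of the distribution. Ordered by level in Phc2 L307R, Bmi1 was followed by Scmh1, Rybp, Phc1, Rnf2, Scml2, Phc3, Pcgf2, Ring1 and Pcgf5. From Scmh1 down to Pcgf5 in this order, each gene differed from the next by less than the larger of their 2 SDs over probes, with gaps of 0.059 to 0.39. In wild type the order after Bmi1 was Scmh1, Rybp, Phc3, Phc1, Pcgf2, Rnf2, Ring1, Scml2 and Pcgf5, and besides the step below Bmi1 the steps from Rnf2 to Ring1 (0.54) and from Scml2 to Pcgf5 (0.55) exceeded those SDs. Only the place of Bmi1 stood clear of the spread between probes in both genotypes.

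Of the RING genes, Rnf2 lay at the cut-off in both genotypes. Its window (chr1:153261804-153262288) averaged 1.09 ± 0.48 in Phc2 L307R and 0.98 ± 0.42 in wild type, and ranked 6124 and 8208 of 17649. The 3 probes read 0.74, 0.90 and 1.64 in Phc2 L307R, against 0.51, 1.07 and 1.34 in wild type. The 2 groups of probes overlap, and the difference of 0.12 ± 0.26 is smaller than its spread over the probes. At the probe that read 1.64 in Phc2 L307R, the input signal there was 419 and not well above background. With only probes well above background, another window averaged 0.75 in Phc2 L307R and 0.83 in wild type, bound in neither. In the window above, binding of Rnf2 in Phc2 L307R but not in wild type thus rests on 1.09 and 0.98 against a cut-off of 1.

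A second stretch of Rnf2, about 1 kb to the right of that window, read otherwise. The probe starting at 153263352 stood at 0.81 in Phc2 L307R and 2.54 in wild type, the next at 153263614 at 0.50 and 1.31, and the one at 153263917 at 0.58 and 1.14. The probe at 153263788, between those at 153263614 and 153263917, read -0.07 in Phc2 L307R and 0.10 in wild type. In the deposited value tables the probes at 153263352, 153263614 and 153263917 read 0.96, 0.80 and 1.35 in wild type. There they read 0.81, 0.50 and 0.58 in Phc2 L307R. At the probe starting at 153263352 the input signal was 1387 in Phc2 L307R and 475 in wild type. The wild-type input there was not well above background. Precipitate signals of this probe were 2326 in Phc2 L307R and 2569 in wild type. The part of the input in its difference was not tested. A window chosen in wild type alone fell on this stretch and gave 0.49 in Phc2 L307R and 1.44 in wild type, a difference of -0.95. Such a choice favours wild type by its construction. With it the median difference over all promoters was -0.24, against -0.05 with the window chosen over both genotypes. Over all 27 probes, Rnf2 averaged 0.26 ± 0.55 in Phc2 L307R and 0.47 ± 0.64 in wild type (SD over probes), and 17 of 27 probes were lower in Phc2 L307R. The sign of the Rnf2 difference therefore depends on the window.

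Ring1, the paralogue of Rnf2, was not bound in either genotype with the scanner ratios. With normexp background correction its window, chosen again on those values, averaged 0.52 in Phc2 L307R and 1.36 in wild type. There it counted as bound in wild type. From the scanner ratios its window (chr17:33635480-33635965) averaged 0.26 ± 0.40 in Phc2 L307R and 0.44 ± 0.38 in wild type, with a difference of -0.17 ± 0.66. Its 21 probes ranged from -1.52 to 1.16 in Phc2 L307R and from -0.78 to 0.73 in wild type, and 1 probe in Phc2 L307R and 0 in wild type reached 1. The neighbouring gene name H2-Ke6, whose first probe lies 139 bp from the last probe of Ring1, had a window of 1.12 in Phc2 L307R and 1.01 in wild type. The highest window in this stretch thus carried the neighbour's name, not that of Ring1.

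Bmi1, the Pcgf subunit of canonical PRC1 that represses the Ink4a/Arf locus, was occupied at all but 1 probe of its tiled stretch. Its window (chr2:18596297-18596863) averaged 4.06 ± 0.17 in Phc2 L307R and 3.71 ± 0.78 in wild type, 16.7- and 13.1-fold over the median of the array. It ranked 81 of 17649 in Phc2 L307R and 162 in wild type. Averaged over every probe of its promoter it ranked 15 and 64 of 17719.

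The Bmi1 probes rose to a plateau and fell off on both sides in each genotype. In order of position from 18594060 to 18597589, the 12 probes measured on both arrays read 1.99, 2.02, 4.34, 3.98, 3.58, 4.07, 3.89, 4.23, 3.18, 2.72, 3.04 and 1.94 in Phc2 L307R. The same probes read 1.56, 2.41, 4.08, 3.39, 3.26, 3.38, 4.61, 3.16, 2.77, 2.21, 2.01 and 1.71 in wild type. All 12 lay at or above 1 in both genotypes, over 3588 bp, where 12.6% of the probes of this array design in Phc2 L307R and 14.1% in wild type did. A thirteenth probe, inside this stretch, was dropped because its spot carried an outlier flag in Phc2 L307R, and in wild type it read 0.65. The core of 6 neighbouring probes at or above 3 in both genotypes spanned 1092 bp and averaged 4.02 ± 0.27 in Phc2 L307R and 3.65 ± 0.57 in wild type. A window of at least 3, a level chosen after seeing the data, was reached by 255 promoters in Phc2 L307R and 279 in wild type.

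The precipitate signals of the Bmi1 core lay above the whole range of its input signals. Precipitate signals over the 6 core probes ran from 6761 to 26732 in Phc2 L307R and from 4296 to 17954 in wild type. Input signals ran from 379 to 1773 in Phc2 L307R and from 251 to 1841 in wild type, and were not well above background at 3 and 2 of the 12 Bmi1 probes. Of the 12 probes, 10 were higher and 2 lower in Phc2 L307R, with a mean difference of 0.37 ± 0.51 (SD over probes). The window difference was 0.35 ± 0.94, since its middle probe ran against the other 2, and it did not reach the 2-fold rule.

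The sign of the Bmi1 difference was turned in the deposited value tables. There the same 3 probes averaged 4.07 in Phc2 L307R and 5.07 in wild type, and the highest window of the tables, 3 other neighbouring probes, gave 3.97 and 5.19, a difference of -1.22 that met the rule for lower. Of all promoters bound in either genotype there, 8.24% were lower by the tables and 0.585% higher. The Phc2 L307R tables hold the scanner values at 99.9% of probes (within 0.02 on the log2 scale), whereas the wild-type tables do so at only 4.09% and 4.31% and correlate with the scanner values at 0.854 and 0.891 over the probes of the designs. At the 341 promoters with a window of at least 3 in either genotype, the median difference was -0.30 from the scanner values and -1.52 from the value tables, with 239 of them (70.1%) lower in the tables. A lower value of Bmi1 in the tables is thus shared by most promoters of its level, and which wild-type values come from which hybridisation or processing cannot be told from the files.

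**Figure D3:**
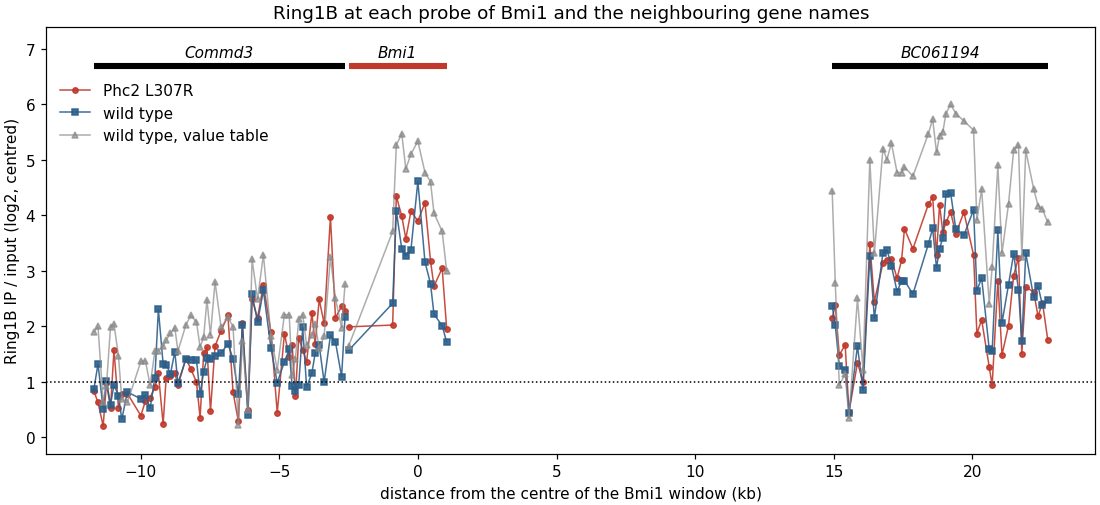
Ring1B precipitate over input (log2, centred) at each probe named Commd3, Bmi1 or BC061194, by distance from the centre of the Bmi1 window in kb. Red circles are Phc2 L307R, blue squares wild type from the scanner and grey triangles wild type from the value table, and bars at the top mark the stretch of each gene name. Both genotypes rise to about 4 at Bmi1, the core averaging 4.02 in Phc2 L307R and 3.65 in wild type, and the table values lie above the scanner values there.

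As the plot of the Bmi1 region shows, many probes of the neighbouring gene names were occupied too, although no probe of these lies in the gap between Bmi1 and BC061194. Commd3, whose last probe lies 82 bp before the first of Bmi1, had 31 of 53 probes at or above 1 in Phc2 L307R and 33 of 53 in wild type, with medians of 1.23 and 1.31. Its window was 2.46 in Phc2 L307R and 2.43 in wild type. BC061194, 13849 bp to the right of Bmi1, had 38 of 41 probes at or above 1 in Phc2 L307R and 39 of 41 in wild type, and a window of 3.86 and 4.18. The windows of Bmi1 and BC061194 both stood above that of Commd3.

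Pcgf2, the paralogue of Bmi1, was the member with all 3 window probes lower in Phc2 L307R. Its window (chr11:97515854-97516295) averaged 0.61 ± 0.53 in Phc2 L307R and 1.01 ± 0.47 in wild type. The probes read 0.01, 0.79 and 1.02 in Phc2 L307R, against 0.55, 0.97 and 1.49 in wild type. The 2 groups overlap, but the difference of -0.40 ± 0.19 is larger than its spread over the probes. The error that follows from the scanner's own error of each probe was 0.22. The wild-type level lay at the cut-off, and input at its probe of 1.49 was not well above background in wild type. With only probes well above background, another window averaged 0.36 in Phc2 L307R and 0.65 in wild type, bound in neither. With normexp background correction the difference was 0.09. Pcgf2 also shares a promoter with Psmb3 under a joint gene name outside the rule, 196 bp away. That promoter had a window of 1.29 in Phc2 L307R and 1.81 in wild type, a difference of -0.52 ± 0.51, while the value tables gave -0.13 for Pcgf2 and -0.09 for the joint name.

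Pcgf5, a Pcgf subunit of variant PRC1, had the lowest window of the 10 genes. It averaged -0.13 ± 0.56 in Phc2 L307R and -0.27 ± 0.06 in wild type (chr19:36444517-36445250), with 0 of 31 probes at or above 1 in either genotype. It ranked 16775 and 17061 of 17649. RefSeq gives Pcgf5 3 starts, with 34, 5 and 35 CpG, and the tiled stretch cannot be assigned to one of them here.

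Of the Polyhomeotic genes, Phc1 was bound in both genotypes and Phc3 in wild type. The Phc1 window (chr6:122306029-122306420) averaged 1.34 ± 0.43 in Phc2 L307R and 1.08 ± 0.47 in wild type. Its probes read 1.77, 1.32 and 0.91 in Phc2 L307R, against 1.57, 1.04 and 0.63 in wild type, a difference of 0.26 ± 0.05. All 3 probes were higher by a similar amount, but over all 39 probes of Phc1 22 were lower in Phc2 L307R and the mean difference was -0.10 ± 0.41.

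Phc3 had the largest negative difference of the members. Its window (chr3:31159269-31159677) averaged 0.89 ± 0.18 in Phc2 L307R and 1.38 ± 0.61 in wild type, a difference of -0.49 ± 0.55. The probes read 0.76, 0.82 and 1.09 in Phc2 L307R, against 0.69, 1.84 and 1.61 in wild type, so that 2 of them were lower and 1 was higher by 0.07. The value tables gave -0.73, and Phc3 was the only member whose difference kept its sign in all 9 alternatives that give one, between -0.73 and -0.09. The 21 probes of Phc3 correlated between the genotypes at 0.857, which was the highest value among the members.

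Of the Scm genes, Scmh1 had nearly the same level in both genotypes in its window from the scanner ratios, but not along its whole first stretch. Its window (chr4:119904118-119904430) averaged 1.61 ± 0.28 in Phc2 L307R and 1.59 ± 0.26 in wild type. The probes read 1.55, 1.35 and 1.91 in Phc2 L307R, and between 1.39 and 1.87 in wild type, a difference of 0.02 ± 0.05. No probe of the 3 differed by more than 0.06 between the arrays. With normexp background correction the window was chosen again on those values and may hold other probes. It averaged 0.75 in Phc2 L307R and 1.42 in wild type, a difference of -0.67, and was bound in wild type only.

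Scmh1 was tiled in 2 stretches 119055 bp apart, which read differently. The stretch of 26 probes from 119897875 to 119905560 averaged 0.63 ± 0.73 in Phc2 L307R and 0.86 ± 0.55 in wild type, with 10 probes at or above 1 in each. The stretch of 16 probes from 120024556 to 120027526 averaged -0.45 ± 0.71 in Phc2 L307R and -0.47 ± 0.45 in wild type, with 0 probes at or above 1 in either. In Phc2 L307R 18 of the 26 probes were lower in the first stretch and 8 of the 16 in the second. Over all 42 probes of Scmh1 26 were lower, and the mean difference was -0.13 ± 0.55 (SD over probes). By 2-fold or more, 4 probes were lower and 1 higher. RefSeq lists a CpG-rich and a CpG-free start for this gene, but they lie closer together than these stretches and are not paired with them here.

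Scml2 had the largest difference of the 10 genes. Its window (chrX:156503547-156503970) averaged 1.02 ± 0.37 in Phc2 L307R and 0.28 ± 0.38 in wild type, and ranked 6715 and 13245 of 17649. The probes read 1.27, 1.20 and 0.60 in Phc2 L307R, against 0.11, 0.72 and 0.02 in wild type. The ranges overlap, although all 3 probes were higher in Phc2 L307R, with a difference of 0.74 ± 0.37 that stayed below the 2-fold rule. At a rule of 1.5-fold it would count as higher, as 6.38% of all promoters bound in either genotype do (13.5% would be lower).

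The higher probes of Scml2 were scattered and dim. In Phc2 L307R 7 of 40 probes lay at or above 1, against 1 in wild type, and no more than 2 of the 7 were neighbours. On this array design 13% of all probes in Phc2 L307R and 13.7% in wild type reached that level. Input signal was not well above background at any of these 7 probes in Phc2 L307R, nor at 19 of the 40 probes in all, against 13 in wild type. Over the 21 probes with bright input on both arrays the mean difference was -0.06, and over the other 19 it was 0.48. The part of dim input in the Scml2 difference was not tested. With only probes well above background, the probes of the Scml2 window drop out and another window is taken. That window averaged -0.04 in Phc2 L307R and 0.09 in wild type, a difference of -0.13. The 40 probes of Scml2 correlated between the genotypes at 0.148, against 0.419 to 0.857 at the other 9 genes; these points share arrays and amplification. Promoters on chromosome X of the same array design had a median difference of -0.04 (580 promoters) and those not on X one of -0.02 (8156).

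Rybp, the subunit that marks variant PRC1, was bound in both genotypes at an even level. Its window (chr6:100251547-100252516) averaged 1.55 ± 0.31 in Phc2 L307R and 1.45 ± 0.08 in wild type, a difference of 0.10 ± 0.39. The probes read 1.88, 1.51 and 1.25 in Phc2 L307R, against 1.38, 1.43 and 1.54 in wild type, and 1 of the 3 was lower. After Bmi1, Rybp had the highest mean over all its probes, 0.45 ± 0.69 in Phc2 L307R and 0.52 ± 0.77 in wild type. Its longest run of neighbouring probes at or above 1 held 5 probes over 1324 bp in Phc2 L307R and 7 probes over 1624 bp in wild type.

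**Figure D4:**
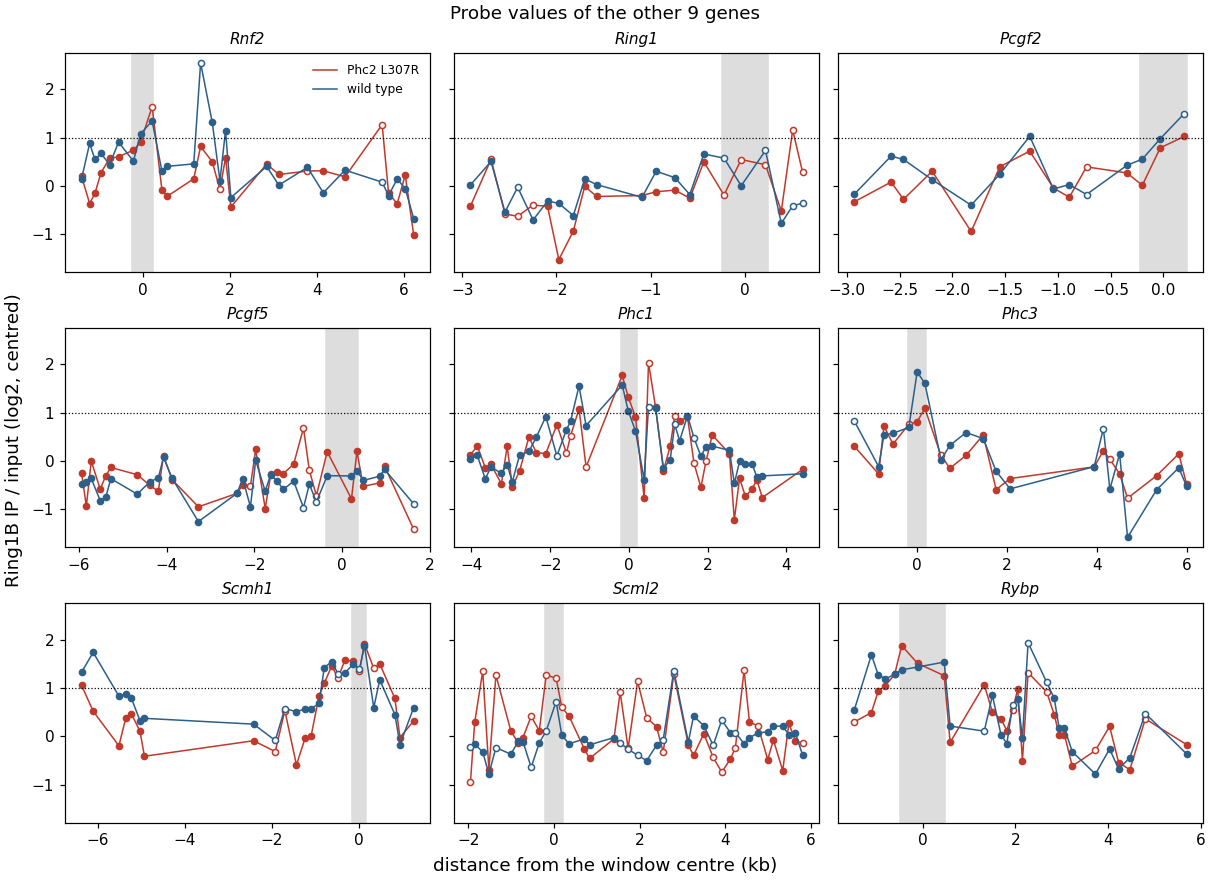
Ring1B precipitate over input (log2, centred) at each probe of the other 9 genes within 10 kb of the window, by distance from the window centre in kb. Red is Phc2 L307R and blue wild type, open circles are probes whose input was not well above background, grey bands the windows and dotted lines the cut-off of 1. Scmh1 and Rybp rise above 1 over several neighbouring probes in both genotypes, while the Scml2 probes above 1 in Phc2 L307R are open and scattered, with runs of at most 2 neighbours.

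The plot of probe profiles shows that outside Bmi1 the genotypes shared the shape of the stretch at Phc1, Phc3, Scmh1 and Rybp, whose probes correlated between genotypes at 0.794 to 0.857. Pcgf2 lay at 0.760, Rnf2 at 0.573, and Ring1, Pcgf5 and Scml2 at 0.148 to 0.445. Each correlation describes a single pair of arrays.

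The size and sign of the smaller differences depended on the processing. Over the 9 alternatives that give a difference, the sign changed 5 times at Rnf2 (-0.95 to 0.12), 4 times each at Phc1 and Scmh1, 3 times each at Rybp and Scml2, 2 times at Pcgf5, and 1 time each at Bmi1, Pcgf2 and Ring1. The error of a window difference that follows from the scanner's error of each log ratio lay between 0.21 and 0.46 for the members, larger than the difference itself at Rnf2, Ring1, Pcgf5, Scmh1 and Rybp.

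**Figure D5:**
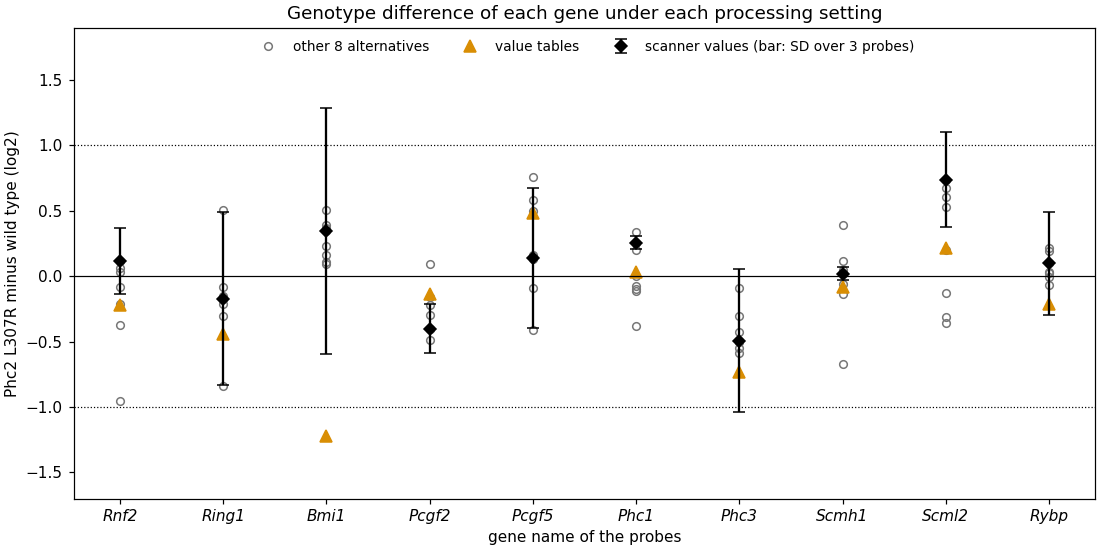
Difference between Phc2 L307R and wild type (log2) at each gene under each processing setting. Black diamonds are the scanner values with the SD over 3 probes, orange triangles the value tables, grey circles the other 8 alternatives and dotted lines the 2-fold rule. Only Bmi1 from the value tables, at -1.22, passes a dotted line, and Phc3 alone stays on one side of 0.

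As the plot of settings shows, 9 of the genes had both signs among their settings. The size rule was met only by Bmi1, and only with the value tables.

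The promoters nearest in level to Rnf2 and Scml2 were drawn from the same array design, by Euclidean distance over the 2 genotypes. For Rnf2 they were Erc1 (distance 0.018), Olfr868 (0.019) and Rpl6 (0.022) of 8912 promoters, with 73 closer than 0.1. For Scml2 they were Ripk3 (0.013), Gm94 (0.018) and 4930430F08Rik (0.027) of 8735, with 27 closer than 0.1. Many promoters thus shared the level of Rnf2, over 2 arrays only.

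Other genes of the Polycomb pathway were set beside the members. Of 25 promoters of further PRC1 partners, 15 were bound in Phc2 L307R and 13 in wild type, with medians of 1.11 and 1.20. The list's median difference was -0.13, and 1 promoter was lower and 0 higher. The one that fell was the joint promoter of the homeobox gene Tlx2 and Pcgf1, at 4.14 ± 0.29 in Phc2 L307R and 5.56 ± 0.65 in wild type, while the probes named Pcgf1 alone had a window of 0.49 and 0.67. Mga, a subunit of Pcgf6 complexes, stood at 2.98 ± 0.85 in Phc2 L307R and 2.92 ± 0.71 in wild type. The histone deacetylase gene Hdac1, at 1.58 ± 0.85 and 0.33 ± 0.37, had the highest difference of the list but did not meet the rule, since its probes disagreed on the sign.

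The Cbx genes were occupied at higher levels than most members. Of 11 Cbx promoters, the HP1 genes Cbx1, Cbx3 and Cbx5 included, 9 were bound in each genotype, with medians of 1.63 in Phc2 L307R and 1.87 in wild type. Cbx2, a Polycomb Cbx protein of canonical PRC1, fell to 2.26 ± 0.09 in Phc2 L307R, against 3.36 ± 0.34 in wild type, and was the only one called, against 3 lower in the value tables.

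Of 12 PRC2 promoters, the methyltransferase complex that sets H3K27 methylation, 11 were bound in each genotype, with medians of 1.93 in Phc2 L307R and 1.62 in wild type and 0 called lower or higher. The median difference was 0.27, with 8 promoters above 0. Ezh2, the catalytic subunit, read 2.53 ± 0.99 in Phc2 L307R and 2.25 ± 0.47 in wild type. The median difference of this list from the value tables was 0.02.

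For scale, 22 promoters of developmental genes that are classical Polycomb targets had medians of 3.30 in Phc2 L307R and 3.78 in wild type. Their median difference was -0.25 with 2 lower from the scanner values, but -1.47 with 19 lower from the value tables. By the scanner values Bmi1 lay above that median in Phc2 L307R and just below it in wild type, and the median of the 10 members was 1.06 in Phc2 L307R and 1.04 in wild type. The 85 promoters of cytosolic ribosomal protein genes, which are active in growing cells, had medians of 1.25 and 1.22, with 57 and 66 bound. These medians lie close to that of the members.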

How the data were processed

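Each of the 4 arrays came with a scanner file and a value table. The deposited scanner files hold spot intensity and a log10 ratio of Cy5 (precipitate) over Cy3 (input), made with Agilent Feature Extraction 10.7.3.1 per the file headers. Log10 ratios are also the unit of the deposited value tables, with column medians of -0.0341 and -0.0392 in Phc2 L307R and -0.056 and -0.0615 in wild type, and what the authors did to the wild-type tables stays unknown. Ratios were converted to log2 from the deposited log10 values and centred on each array's median. Control and outlier-flagged spots were dropped; saturated spots stayed in.

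Genotypes were taken from the labels. The 2 array designs are different promoters, not replicates, so fixed rules of size were used and no test was made. Precision is limited by the number of arrays. The members, the gene lists and the rules were chosen with earlier results of these data known. Named are all 10 members, the extremes of each list by difference or wild-type level, and the 3 promoters nearest to Rnf2 and to Scml2; neighbouring gene names, the split by input brightness, the cut-off of 3, Ezh2 and the probes named Pcgf1 alone were added after seeing the data. An item that this rule would name is not reported here. Bcorl1, Auts2, Fbrs, L3mbtl1, Skp1a, Phc2, Ezh1 and Ptprc were not analysed here. The alternatives were normexp background correction (offset 50), loess, the same spread on all arrays, the value tables, bright probes only, other windows, a bound cut-off of 1.5 and a 1.5-fold rule. The steps were tested on simulated data. Python 3.11.15 (numpy 2.4.6, pandas 2.3.3, matplotlib 3.10.9) and R 4.3.3 with limma 3.58.1 were used.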

Additional observations from a re-analysis of the deposited data

How the results depend on the processing

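The number of members bound in Phc2 L307R (6) became 2 with normexp background correction, 3 with windows of 5 probes, 3 with the window chosen in wild type, 1 with the mean over all probes and 3 with a cut-off of 1.5. The number bound in wild type (6) became 1 with the mean over all probes and 2 with a cut-off of 1.5. The mean over all probes and the higher cut-off lower such counts by their construction. A window chosen in wild type is not chosen for its level in Phc2 L307R, and so favours wild type by its construction. The cause of the other changes was not tested. The count of members lower in Phc2 L307R (0) became 1 with the value tables (Bmi1), and the count higher (0) became 1 with a 1.5-fold rule (Scml2). The median difference over the members (0.11) became -0.37 with normexp background correction, where the median over all promoters was -0.13. Its sign also turned with the value tables (-0.17), probes well above background only (-0.04), the window chosen in wild type (-0.24) and the mean over all probes (-0.09). Over all promoters the medians there were -0.06, -0.14, -0.24 and -0.05. The members' median stayed above 0 with loess (0.17), the same spread (0.05), windows of 5 probes (0.03) and windows chosen in Phc2 L307R (0.30). Under the remaining settings these counts and the size of the median stayed within 1.5 times, or within the spread of the members. Those settings were loess, arrays scaled to the same spread, probes well above background only and windows chosen in Phc2 L307R. A window chosen in Phc2 L307R favours Phc2 L307R by its construction, and the median over all promoters with it was 0.15. No paired analysis was possible because the numbers in the sample titles are array designs and each promoter has 1 array per genotype. With 1 array per genotype, neither culture nor hybridisation error is known. Negative windows give a gauge of noise: the lowest window of a promoter reached -1 at 1350 promoters in Phc2 L307R and 386 in wild type, and 1 of the 10 members, Scmh1 at -1.05, reached it in Phc2 L307R.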

Other observations

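Promoters of marker genes of fibroblasts (Col1a1, Col1a2, Thy1, Twist1) and of muscle, blood and neural cells were read as well. Of the 9 promoters, 5 were bound in Phc2 L307R (Col1a1, Col1a2, Twist1, Olig2 and Sox1) and 6 in wild type, where Thy1 was bound too. The neural transcription factor genes Olig2 and Sox1 stood highest, Olig2 at 3.31 ± 0.87 in Phc2 L307R and 3.32 ± 0.24 in wild type, and Sox1 at 3.28 ± 0.57 and 2.96 ± 1.00, all below Bmi1. The fibroblast collagen gene Col1a2 had the highest difference of the list, at 2.29 ± 0.48 in Phc2 L307R and 1.39 ± 0.16 in wild type, and did not meet the 2-fold rule. The muscle factor gene Myod1 was bound in neither genotype, at 0.60 ± 0.67 in Phc2 L307R and 0.23 ± 0.36 in wild type. Promoter arrays hold no expression, so these levels do not check the identity of the cells.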
